A study of Mus musculus with 9 samples.

Results

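The genes described here lie on mouse chromosome 17 and had a mean of 0.5 CPM (reads of a gene scaled to a common library total) or more over the 9 libraries of the series. Of 2320 chromosome 17 gene IDs, 648 met this rule, out of 13053 genes of all chromosomes at that level. The other 1672 were below it, and 933 of these had 0 reads in every library. The genes nearest the threshold were CT010496.1 at 0.505 CPM and Wdr27 at 0.517 CPM inside it, and Unc93a2 at 0.495 CPM and AC122818.3 at 0.498 CPM outside. The chromosome was selected on the G1C7 against Gcontrol fold changes of its genes, so the G1C7 values below describe that choice and test nothing about it. The comparison of G1C7 with G2C9 uses the same G1C7 libraries, so its values and p-values are not free of that choice either. All 648 passed the filter on low counts, among them 22 whose mean in the control group was under 0.5 CPM. There were 572 protein-coding genes among them.

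The groups were 3 libraries each of Gcontrol, G1C7 and G2C9, all from NP53, a mouse diffuse midline glioma (DMG) tumour cell line grown in serum-containing medium. Gcontrol is labelled WT, and G1C7 and G2C9 are labelled TIM-3 knockout. TIM-3, encoded by Havcr2, is an inhibitory receptor best known from T cells. The labels do not say whether a derivative is a single clone, what the control cells received, or whether the 3 libraries of a group came from separate cultures. The p-values therefore measure only the spread between these libraries, which may be technical.

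Mouse chromosome 17 carries the t-complex with the imprinted Igf2r and Airn locus near its start, clusters of zinc finger genes, and further on the major histocompatibility complex (H2), whose class I and antigen-processing genes respond to interferon. Between and beyond these lie genes of general cell function, such as those for the chaperone Hsp90ab1, the tubulin Tubb5 and the mismatch repair factor Msh6. Genes of one chromosome share no single pathway, so a shift common to its genes is read along the chromosome rather than by function.

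To show the start of genes that followed the chromosome and of genes that did not, the 250 bases upstream of 5 annotated starts are printed 5′ to 3′ with CG in capitals. They come from RefSeq (GRCm38.p6), whose table held a promoter for 501 of the 648 genes. Ltbp1 and Mtch1 were higher in G1C7, Ezr was called in opposite directions in the derivatives, and Six2 and Rcan2 were lower in both.
Ltbp1, chr17:75005279-75005528, plus strand: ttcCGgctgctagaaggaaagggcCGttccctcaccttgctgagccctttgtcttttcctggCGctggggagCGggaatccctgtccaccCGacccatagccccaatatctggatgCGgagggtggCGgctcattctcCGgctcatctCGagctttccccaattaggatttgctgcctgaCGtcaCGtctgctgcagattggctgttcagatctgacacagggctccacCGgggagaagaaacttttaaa
Mtch1, chr17:29347933-29348182, minus strand: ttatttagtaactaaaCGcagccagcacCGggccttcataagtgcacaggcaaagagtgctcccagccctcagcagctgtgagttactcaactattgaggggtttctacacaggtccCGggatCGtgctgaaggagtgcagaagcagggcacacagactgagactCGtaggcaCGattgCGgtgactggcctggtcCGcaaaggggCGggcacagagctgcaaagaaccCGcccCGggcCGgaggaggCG
Ezr, chr17:6782781-6783030, minus strand: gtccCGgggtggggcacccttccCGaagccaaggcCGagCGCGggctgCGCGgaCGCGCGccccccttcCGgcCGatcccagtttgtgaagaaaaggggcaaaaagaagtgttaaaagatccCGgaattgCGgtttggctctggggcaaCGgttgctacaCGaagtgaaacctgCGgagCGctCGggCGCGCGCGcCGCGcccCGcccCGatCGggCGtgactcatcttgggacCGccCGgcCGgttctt
Six2, chr17:85688255-85688504, minus strand: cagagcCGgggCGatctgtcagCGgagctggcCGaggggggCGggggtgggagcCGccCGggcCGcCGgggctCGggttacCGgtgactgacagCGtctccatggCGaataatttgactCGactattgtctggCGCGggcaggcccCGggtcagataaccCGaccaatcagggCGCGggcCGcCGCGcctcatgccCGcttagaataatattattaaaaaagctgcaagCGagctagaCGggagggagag
Rcan2, chr17:43801102-43801351, plus strand: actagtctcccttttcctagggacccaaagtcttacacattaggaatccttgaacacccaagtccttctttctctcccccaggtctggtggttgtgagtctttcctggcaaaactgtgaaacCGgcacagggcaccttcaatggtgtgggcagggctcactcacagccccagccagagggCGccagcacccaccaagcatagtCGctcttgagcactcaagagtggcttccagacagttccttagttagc

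The letters CG, which read the same on both strands and cannot overlap themselves, occur 32 times in the Ezr window, 26 in that of Six2, 13 in that of Mtch1, 12 in that of Ltbp1 and 3 in that of Rcan2. The median was 16 over the 501 genes, 7 over the 1626 promoters of chromosome 17 and 6 over all 32851 promoters in the table. The 1626 and the 32851 were not limited to genes at 0.5 CPM or more, so they are no like-for-like set for the 501. Among the 183 genes with a promoter that were called higher in G1C7 the median was 18, and among the 15 called lower it was 14. TATAAA, searched on both strands, was in 7.19% of the 501, in 11.5% of the 1626, in 12.4% of all promoters, in 7.10% of the 183 and in 0% of the 15. These counts describe letters only.

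Each library held between 50110129 and 56035382 reads in genes. Chromosome 17 took 4.88%, 4.82% and 4.96% of them in Gcontrol, 5.31%, 5.25% and 5.26% in G2C9, and 6.37%, 6.25% and 6.496% in G1C7, with no overlap between groups. Across the genome, replicate 2 of G1C7 and replicate 3 of G2C9 lay away from their own groups (below, the libraries that stood apart), so medians and counts by window and by list, and the values of several genes, are also given without both. Havcr2 had 74, 58 and 60 reads in Gcontrol, 55, 6 and 66 in G1C7 and 39, 30 and 28 in G2C9, and RNA level alone does not check a knockout of the protein. The 9 glioma and oligodendrocyte precursor markers summed to between 2262 and 2322 CPM in Gcontrol, 2504 and 2606 in G2C9 and 2787 and 2843 in G1C7, most of it Vim. Olig1 and Olig2 were at 0 in every library, and Sox10 and Gfap reached at most 0.0396 and 0.333 CPM. Cspg4 had 38.4 to 47.7 CPM in Gcontrol, 3.39 to 5.41 in G2C9 and 0.910 to 1.53 in G1C7, Sox2 69.4 to 69.8, 23.2 to 40.8 and 21.3 to 58.6, and Pdgfra 238 to 257, 390.4 to 541 and 331 to 491, so Cspg4 and Sox2 were lower and Pdgfra higher in every library of the derivatives. Vim, at 1800 to 1840, 1844 to 2075 and 2124 to 2307, was also higher in each of them. Nes had 108 to 123 in Gcontrol, 90.1 to 101 in G2C9 and 149 to 158 in G1C7, so the derivatives lay on opposite sides of the controls. The 5 fibroblast markers summed to between 5853 and 6154 CPM in Gcontrol, 3025 and 8206 in G1C7, and 3918 and 8767 in G2C9, highest within the derivatives in the libraries that stood apart. The summed lists for microglia, endothelium, T cells and epithelium reached at most 5.59 CPM, and their part in the results was not tested. In bulk RNA, fewer cells of a type and less RNA per cell cannot be told apart.

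Levels below are CPM scaled with TMM factors, which set the libraries to a common scale on the assumption that most genes do not change. A gene was called when its Benjamini-Hochberg adjusted p, over all 15659 genes tested with edgeR's quasi-likelihood test on all 9 libraries, was under 0.05. Against Gcontrol, the median log2 fold change of the 648 genes was 0.43 in G1C7 and 0.13 in G2C9, beside 0.02 and 0.01 over all genes tested. In G1C7, 540 of the 648 lay above 0 (83.3%), as did 51.4% of all genes tested. Per library, the median log2 ratio to the Gcontrol mean was 0.37, 0.43 and 0.36 in G1C7 and 0.11, 0.10 and 0.14 in G2C9. The 3 Gcontrol libraries, each set against the other Gcontrol libraries, gave -0.0054, -0.0088 and 0.02. The medians without the libraries that stood apart were 0.38 and 0.11.

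In G1C7, 222 of the 648 genes were called higher and 20 lower, where 8.77% and 8.73% of all genes tested were called in those directions (17.5% in either). In G2C9, 60 were called higher and 29 lower, 13.7% of the 648 beside 13.5% of all genes tested (6.25% higher and 7.22% lower). Between the derivatives, G1C7 was called higher for 54 genes and lower for 6, where the shares over all genes tested were 1.71% and 1.65% (3.36% in either). Without the libraries that stood apart the counts were 422 and 63 in G1C7 (26.4% and 27.9% of all genes), 258 and 109 in G2C9 (25.4% and 27.6%), and 349 and 33 between the derivatives (14.8% and 12.5%). In either direction, 54.3% of all genes were then called in G1C7 and 53% in G2C9. Both libraries were picked from these same data for their distance from their groups. Calls without them, here and below, are therefore easier to reach and are a description. Single libraries also moved the higher counts. Without Gcontrol replicate 1, 2 or 3 they were 110, 117 and 113 in G1C7, 13, 16 and 18 in G2C9, and 17, 22 and 21 between the derivatives. Leaving out G1C7 replicate 2 gave 298, 122 and 146. Leaving out G2C9 replicate 1 or 2 gave 25 and 25 in G2C9 and 14 and 9 between the derivatives, and leaving out G1C7 replicate 1 or 3 gave 13 and 16 between the derivatives. Shares over all genes tested are not given for these single-library runs, so nothing particular to chromosome 17 is read from their counts. The libraries of G1C7 lay above all Gcontrol libraries for 356 of the 648 genes and below for 38, where 21% and 22.1% of all genes did so. For G2C9 these counts were 195 and 76, beside 20.4% and 22.9%. G1C7 lay above all G2C9 libraries for 224 and below for 18, beside 9.74% and 8.5%.

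**Figure D1:**
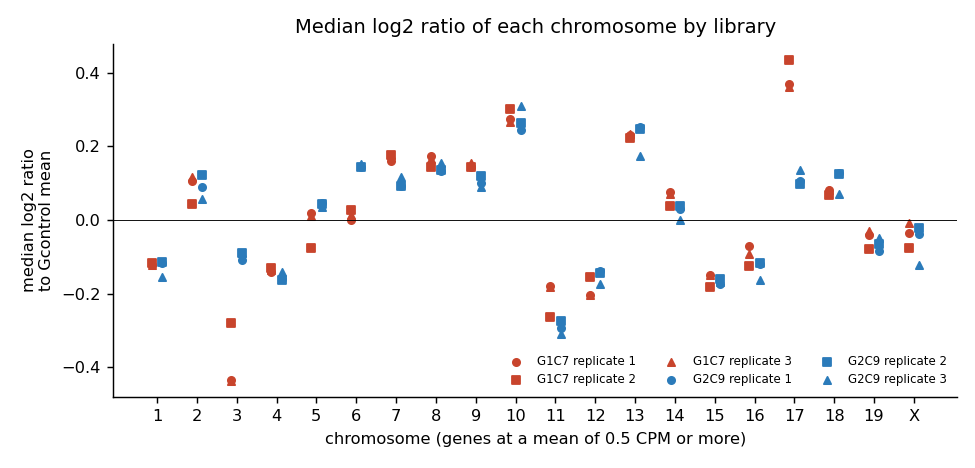
Median log2 ratio to the Gcontrol mean of each chromosome's genes at 0.5 CPM or more (y axis, log2), by chromosome (x axis), with 1 point per library of G1C7 (red) and G2C9 (blue). The 3 G1C7 points of chromosome 17 lie between 0.36 and 0.43, above those of every other chromosome drawn, and its G2C9 points between 0.10 and 0.14. Chromosome Y (5 genes) and the mitochondrial chromosome (14 genes) are not drawn.

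Other chromosomes also had medians away from 0. Chromosome 10 had medians of 0.30 in G1C7 and 0.27 in G2C9 over 643 genes. Chromosome 13 had 0.25 and 0.24 over 501 genes. Chromosome Y, with only 5 genes, had -0.60 in G1C7 and -12.9 in G2C9, and a median log2 difference of 12.1 between them. Its library median was -7.49 in every G2C9 library, the value of a level of 0. The -12.9 and 12.1 are fitted against that 0, so their sizes are no bound. The median log2 difference between G1C7 and G2C9 was 0.29 on chromosome 17, and chromosome 3 lay in the other direction with -0.26 over 665 genes. The corresponding differences on chromosomes 10 and 13 were 0.00391 and 0.00529, and none of these medians was tested. DNA copy number was not analysed here.

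By 15 Mb window of gene midpoint, the G1C7 medians were larger in the later windows, while those of G2C9 had no such order. The first window, from 0 to 15 Mb, held 54 genes with medians of 0.17 in G1C7 and 0.20 in G2C9. Its library medians were 0.20, 0.19 and 0.16 in G1C7 and 0.16, 0.17 and 0.16 in G2C9, and these overlap. From 15 to 30 Mb, over 199 genes, the medians were 0.35 and 0.19. In the window of 30 to 45 Mb, which holds the H2 complex, 164 genes had medians of 0.44 and 0.10. Library medians there were 0.40, 0.43 and 0.38 in G1C7 and 0.0470, 0.0634 and 0.12 in G2C9, without overlap.

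The 111 genes from 45 to 60 Mb had medians of 0.46 in G1C7 and 0.09 in G2C9. From 60 to 75 Mb, 52 genes had 0.57 and 0.30, the highest G2C9 median of the chromosome's windows. The library medians of G2C9 in that window were 0.19, 0.22 and 0.25, each above its value in the windows on either side. From 75 to 90 Mb, 63 genes had medians of 0.51 and 0.14. The last window held only 5 genes, with 0.83 in G1C7 and 0.0775 in G2C9. The G2C9 library medians there were -0.12, -0.0724 and -0.0623, below 0 in all 3. The fitted G2C9 value turned to -0.0932 without G2C9 replicate 3 and to -0.0353 without Gcontrol replicate 3. Without the libraries that stood apart, the G1C7 medians of the 7 windows were 0.16, 0.31, 0.38, 0.40, 0.55, 0.47 and 0.60. The G2C9 medians were then 0.21, 0.13, 0.0569, 0.0647, 0.22, 0.15 and -0.10.

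**Figure D2:**
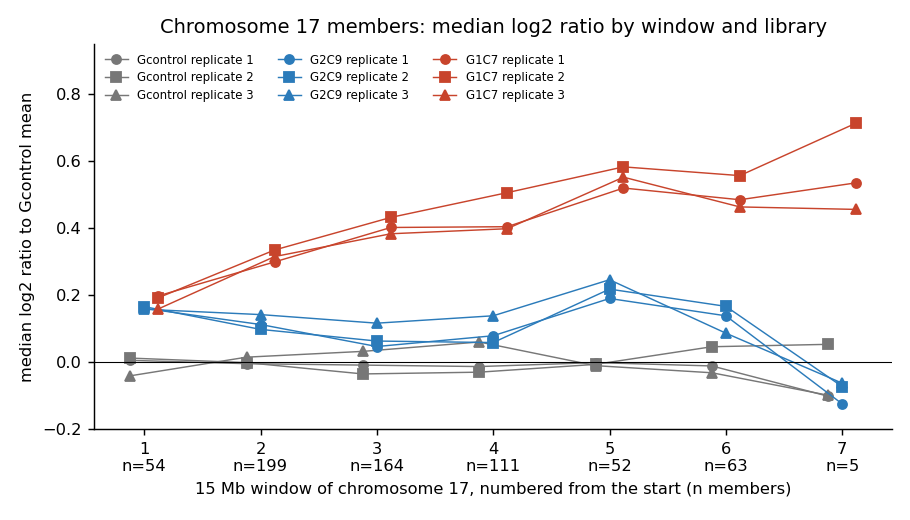
Median log2 ratio to the Gcontrol mean (y axis, log2) of the chromosome 17 genes in each 15 Mb window (x axis, numbered from the start of the chromosome, with the number of genes), 1 point and line per library. Gcontrol libraries (grey) are set against the other Gcontrol libraries, and G1C7 (red) parts from G2C9 (blue) from the second window on, while both lie near 0.16 to 0.20 in the first.

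Set beside the 174 windows of this size in the genome with 20 or more genes, the windows from 60 to 75 Mb and from 75 to 90 Mb had the highest and next highest G1C7 medians. The windows from 30 to 45 Mb and 45 to 60 Mb ranked 8 and 7, that from 15 to 30 Mb ranked 14 and the first ranked 41. For the difference between the derivatives, the 4 windows from 30 to 90 Mb held the ranks 2, 3, 4 and 1, the window from 15 to 30 Mb rank 6 and the first window rank 92. In G2C9 the ranks ran from 14 to 74. These ranks are a description.

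The difference between G1C7 and G2C9 changed over a short stretch. In bins of 5 Mb its median lay between -0.07 and 0.06 for the 5 bins up to 25 Mb, and between 0.24 and 0.82 for the 14 bins after it. The change fell just after Tsr3 (chromosome 17, 25240170 to 25242798, plus strand), which acts on 18S rRNA in ribosome production. This split was chosen after the values were seen, so it is described and not tested. Up to Tsr3, 165 genes had a median log2 difference of 0.0251, and 90 of them lay above 0. After Tsr3, 483 genes had a median of 0.35, and 434 of them (89.9%) lay above 0. The last 20 genes before the split had a median of 0.0252 and the first 20 after it 0.45.

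Against Gcontrol, the 165 genes up to Tsr3 had medians of 0.20 in G1C7 and 0.24 in G2C9, and the 483 genes after it had 0.47 and 0.11. Library medians of the longer stretch were 0.45, 0.49 and 0.43 in G1C7 and 0.0923, 0.10 and 0.13 in G2C9. Called higher between the derivatives were 1 gene before the split and 53 after it, and called lower 1 and 5. Of all genes tested, 1.71% and 1.65% were called in those directions. Without the libraries that stood apart, the median difference was 0.0268 before and 0.34 after. In that setting 24 genes were called higher and 15 lower before the split, and 325 and 18 after it. The shares over all genes tested were then 14.8% higher and 12.5% lower.

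**Figure D3:**
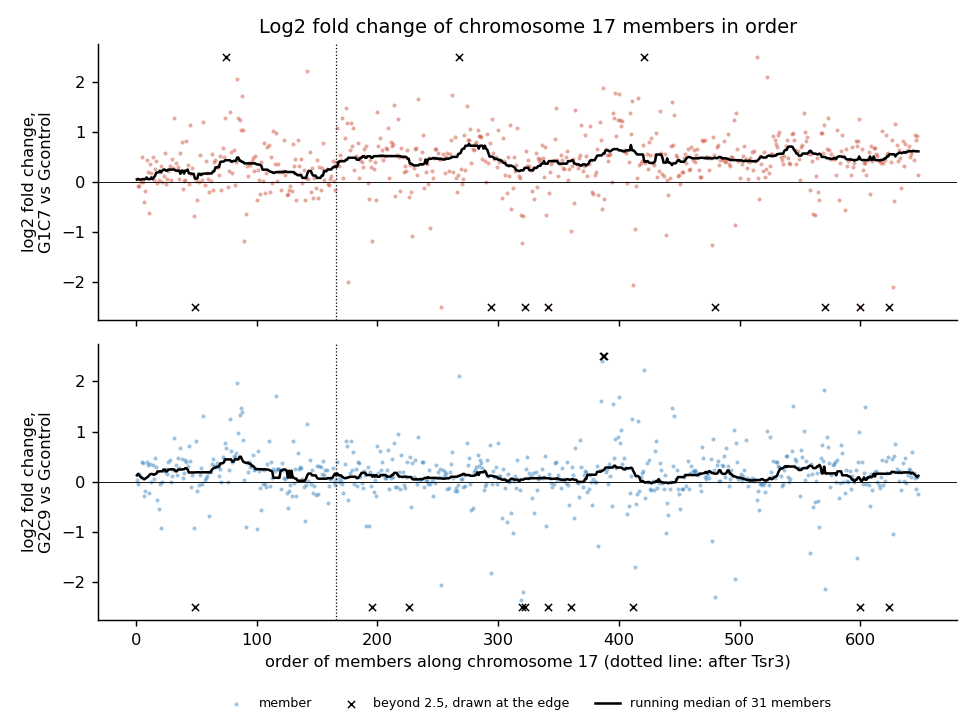
Log2 fold change against Gcontrol (y axis) of the 648 genes in their order along chromosome 17 (x axis), G1C7 above and G2C9 below, with the running median of 31 genes as a line, values beyond 2.5 drawn at the edge as crosses, and the split after Tsr3 dotted. The genes before the split have a median of 0.20 in G1C7 and 0.24 in G2C9, and those after it 0.47 and 0.11.

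Tsr3 itself had 34.5, 33.6 and 32.8 CPM in Gcontrol, 27.6, 30.9 and 38.1 in G2C9 and 32.0, 28.0 and 30.9 in G1C7, so the groups overlap. Msln, which encodes the surface protein mesothelin and lies among the first 12 genes after the split, had 119, 116 and 119 in Gcontrol, 107, 109 and 128 in G2C9 and 223, 414 and 218 in G1C7. Its log2 difference between G1C7 and G2C9 was 1.31 ± 0.23 (SE, edgeR adjusted p = 0.0198), highest in G1C7 replicate 2. The call was lost without G2C9 replicate 1 or 2 or Gcontrol replicate 2 or 3 (adjusted p 0.0505 to 0.0891), and the difference was 1.03 without the libraries that stood apart. Msln and Tsr3 were chosen after their values were seen.

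**Figure D4:**
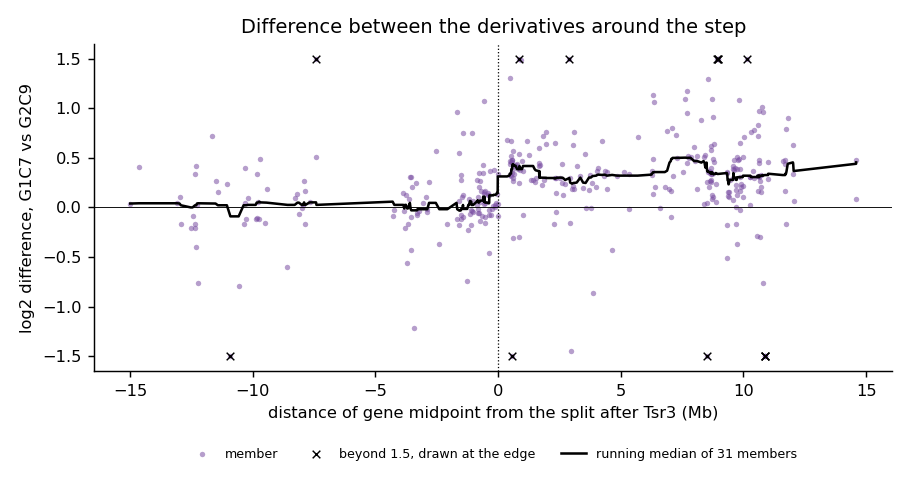
Log2 difference between G1C7 and G2C9 (y axis) of each chromosome 17 gene within 15 Mb of the split after Tsr3 (x axis, Mb from that point), with the running median of 31 genes as a line and genes beyond 1.5 drawn at the edge as crosses. The genes on the left have a median of 0.0251 over the whole stretch up to Tsr3, and those after Tsr3 a median of 0.35.

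The level of a gene beyond the minimum, the length of its exons and its type were not used by the rule. The G1C7 values grouped by them are the same fold changes on which the chromosome was selected, so these groupings are a description. Split into 3 equal groups by mean CPM, the lowest, middle and highest had medians of 0.42, 0.43 and 0.41 in G1C7 and 0.20, 0.11 and 0.13 in G2C9. The library medians of G1C7 were 0.23, 0.57 and 0.23 for the lowest group and 0.45, 0.30 and 0.43 for the highest. Replicates 1 and 3 thus had smaller medians for genes with few reads, and replicate 2 larger ones. Groups of short, middle and long exon length had 0.43, 0.40 and 0.42 in G1C7. The 572 protein-coding genes had 0.42 and the 76 of other types 0.50. The 355 genes whose span overlaps another gene had 0.43, and the 293 without overlap 0.42. Groups by the number of CG upstream had 0.44, 0.42 and 0.43 from fewest to most. The 43 zinc finger genes named Zfp and a number lay on both sides of the split. The 25 before it, from 17.1 to 24.7 Mb, had medians of 0.34 in G1C7 and 0.38 in G2C9, and the 18 after it 0.78 and 0.31.

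The gene with the most reads in each window shows what the shift looks like at single genes. Tcp1, a subunit of the cytosolic chaperonin in the first window, had 553, 578 and 530.1 CPM in Gcontrol, 650.0, 681 and 557 in G2C9 and 599, 457 and 621 in G1C7. It was called in none of the comparisons with all 9 libraries. Leaving out the libraries that stood apart, it was called higher in G1C7 (log2 0.14) and in G2C9 (0.27). Rps2, a protein of the small ribosomal subunit in the second window, had 1982, 2039 and 2028 in Gcontrol and 2807, 1732 and 2842 in G1C7, with the second G1C7 library below all Gcontrol libraries. Tubb5, a beta-tubulin in the third, had 2185, 2174 and 2269 in Gcontrol, 2139, 2198 and 1797 in G2C9 and 2690.2, 2196 and 2776 in G1C7. Its log2 fold change of 0.21 ± 0.12 in G1C7 did not pass with all 9 libraries, and it was called at 0.31 without the libraries that stood apart. Hsp90ab1, the constitutive cytosolic Hsp90 in the fourth window, had 4551, 4419.9 and 4611 in Gcontrol and 6044, 4190.2 and 6104 in G1C7, again lowest in the second G1C7 library. All 3 of these have copies elsewhere in the genome, and reads with several positions were dropped.

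Myl12a, a regulatory light chain of non-muscle myosin in the fifth window, had 253, 284 and 237 CPM in Gcontrol, 306, 319.6 and 411 in G2C9 and 372, 596 and 389 in G1C7, where each G1C7 library lay above each Gcontrol library. It was called higher in G1C7 at 0.81 ± 0.20 (log2, SE), and the call was lost without Gcontrol replicate 1 or 2 or 3 (adjusted p 0.0608 to 0.1001). Mettl4, an adenine methyltransferase in the last window, had 31.04, 33.9 and 34.3 in Gcontrol and 48.0, 41.9 and 44.5 in G1C7. Mettl4 was not called with all 9 libraries, and was called in G1C7 at 0.49 without the libraries that stood apart.

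Ltbp1 had the most reads in the sixth window and binds latent TGF-beta to the extracellular matrix (chromosome 17, 75005568 to 75392512, plus strand). It had 829.8, 795 and 829.8 CPM in Gcontrol, 1064, 1076 and 1172 in G2C9 and 1569, 1990.3 and 1500.5 in G1C7, so the 3 groups stood in that order without overlap. The log2 fold change was 1.04 ± 0.12 in G1C7 and 0.43 ± 0.12 in G2C9 (SE, edgeR adjusted p in G2C9 = 0.0438). The difference between the derivatives was 0.61 ± 0.12 (edgeR adjusted p = 0.0272). The G2C9 call was lost without G1C7 replicate 1, G2C9 replicate 1 or 2 or 3 or Gcontrol replicate 1 or 2 or 3 (adjusted p 0.0598 to 0.142), and that of the difference without G1C7 replicate 1, G2C9 replicate 1 or 2 or Gcontrol replicate 1 or 2 or 3 (adjusted p 0.0633 to 0.119).

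The counts over functional lists that follow stand beside the 34.3% and 9.26% of the 648 genes called higher in G1C7 and G2C9 and the 3.09% and 4.48% called lower. With the libraries that stood apart left out, these shares were 65.1% and 39.8% higher and 9.72% and 16.8% lower. The lists were drawn up with earlier results known, and nothing particular to a list is read from its count.

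Among signalling genes, 10 of 23 listed genes were called higher in G1C7 and 1 lower, with a median log2 fold change of 0.65. In G2C9, 5 were called higher and 1 lower (median 0.24). The library medians of this list in G1C7 were 0.41, 0.75 and 0.36, highest in replicate 2. Leaving out both libraries that stood apart gave 16 higher and 3 lower in G1C7 (median 0.39) and 13 higher and 5 lower in G2C9 (median 0.20). Sos1, the exchange factor that activates RAS, had 64.7, 62.8 and 63.1 CPM in Gcontrol, 78.5, 73.4 and 61.2 in G2C9 and 106, 107 and 102 in G1C7, where G1C7 alone stood above the controls in every library. Twsg1, a secreted modulator of BMP signalling, had 147, 151 and 146, 215, 221 and 202 and 259, 219 and 253 in the same order of groups, and both derivatives lay above Gcontrol. It rose in G2C9 by 0.52 ± 0.09 (edgeR adjusted p = 0.00588). Crim1, a transmembrane BMP antagonist, also rose in G2C9 by 0.57 ± 0.11 (edgeR adjusted p = 0.0121), a call lost without Gcontrol replicate 1 or 2 (adjusted p 0.0547 to 0.0563). Its level was 177, 164 and 177 in Gcontrol, 279.6, 253 and 236 in G2C9 and 314, 378 and 295 in G1C7. Sos1, Twsg1 and Crim1 were chosen after their values were seen.

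The Notch ligand Dll1 had 2.74, 2.29 and 3.70 CPM in Gcontrol, 6.08, 5.63 and 9.86 in G2C9 and 6.23, 7.45 and 6.23 in G1C7, a rise of 1.30 ± 0.27 in G2C9 (edgeR adjusted p = 0.0140) and of 1.19 ± 0.27 in G1C7. Both calls were lost without Gcontrol replicate 1 or 2 (0.0639 to 0.0774). Neurl1b, a ubiquitin ligase that acts on Notch ligands, had 9.21, 9.09 and 10.9 in Gcontrol, 15.7, 16.2 and 16.1 in G2C9 and 22.1, 32.4 and 22.3 in G1C7, with no overlap between any of the groups. Vegfa, the vascular endothelial growth factor, had 219, 217 and 218 in Gcontrol, 221, 222 and 710.0 in G2C9 and 277, 752 and 252 in G1C7. The libraries that stood apart held the high Vegfa values, and it was called in no comparison with all 9 libraries.

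Genes with the largest called rises in G1C7 were of mixed function. Has1, a hyaluronan synthase, had 1.15, 1.07 and 1.46 CPM in Gcontrol, 1.31, 0.674 and 3.91 in G2C9 and 6.06, 17.9 and 6.25 in G1C7, a log2 fold change of 3.03 ± 0.68. Slc25a23, a mitochondrial carrier of ATP-Mg and phosphate, had 8.45, 7.28 and 8.56 in Gcontrol and 23.2, 60.0 and 21.0 in G1C7. Tead3, a DNA-binding partner of YAP, went from 7.54, 7.52 and 8.36 to 15.04, 42.4 and 16.2, and Cyp39a1, an oxysterol hydroxylase, from 8.52, 10.5 and 8.20 to 18.97, 44.6 and 19.8. In all 4, every G1C7 library lay above every Gcontrol library and the second G1C7 library was the highest. Each of the 4 calls was lost without any 1 of the Gcontrol libraries (adjusted p 0.0625 to 0.113). Without the libraries that stood apart their log2 fold changes were 2.32, 1.45, 1.00 and 1.10. Zfp677, a zinc finger gene at 1.44, 1.18 and 1.20 CPM in Gcontrol and 2.96, 4.90 and 2.16 in G1C7, lost its call in the same 3 settings.

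Steadier rises in G1C7 were those of Gabbr1, Zfp760, Ttbk1, Fam173a, Neurl1b and Tnfaip8l1, which were called without each of the 9 libraries in turn. Gabbr1, a subunit of the GABA-B receptor, had 24.5, 20.5 and 26.8 CPM in Gcontrol, 36.6, 36.7 and 57.4 in G2C9 and 67.6, 116 and 60.1 in G1C7, with each group above the one before. Its log2 fold change of 1.77 ± 0.28 in G1C7 became 1.42 without the libraries that stood apart. Ttbk1, a kinase that acts on tau and tubulin, had 1.81, 1.83 and 2.88 in Gcontrol, 5.96, 5.76 and 6.42 in G2C9 and 6.60, 6.17 and 7.03 in G1C7. Zfp760 had 5.601, 5.598 and 5.42 in Gcontrol, 15.9, 14.2 and 13.7 in G2C9 and 14.4, 25.1 and 14.7 in G1C7. These 2 genes thus rose in both derivatives, in G2C9 by 1.48 ± 0.21 and 1.398 ± 0.21 (edgeR adjusted p = 0.00280 and 0.00392). Tnfaip8l1, of a family that binds phospholipids, had 2.96, 3.33 and 3.33 in Gcontrol, 5.39, 5.47 and 5.53 in G2C9 and 7.76, 7.88 and 9.44 in G1C7. Fam173a, a protein lysine methyltransferase, had 7.76, 6.36 and 6.44, 11.1, 12.1 and 12.9 and 16.6, 24.9 and 16.02 in that order of groups.

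Of 7 ribosomal protein genes, 4 were called higher in G1C7 and none lower, with a median of 0.49, and none was called in G2C9 (median 0.17). Leaving out the libraries that stood apart gave 7 higher and 0 lower in G1C7 (median 0.50) and 5 higher and 0 lower in G2C9 (median 0.21). Rps18 had 801, 860.0 and 809 CPM in Gcontrol, 917, 985 and 853 in G2C9 and 1156, 1095 and 1231 in G1C7, and lost its G1C7 call without Gcontrol replicate 1 (adjusted p 0.0574). Rps28 and Rpl36, chosen after their values were seen, had 255, 257 and 266 and 322, 329 and 337 in Gcontrol and 371, 401 and 388 and 449, 458 and 477 in G1C7. In both, all G1C7 libraries were above all others. Ribosomal protein genes have many near-identical copies, so their counts are uncertain.

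Of 23 genes of the cell cycle, apoptosis and DNA repair, 9 were called higher in G1C7 and none lower (median 0.38), and 1 higher in G2C9. The counts were 14 higher and 1 lower in G1C7 (median 0.37) and 9 higher and 2 lower in G2C9 (median 0.11), without the libraries that stood apart. Msh6, of DNA mismatch repair, had 164, 163 and 166 CPM in Gcontrol, 193, 190.2 and 163 in G2C9 and 278, 217 and 277 in G1C7, above the controls in every G1C7 library. Ppp2r1a, the scaffold subunit of protein phosphatase 2A, did not follow, with 301, 307 and 299 in Gcontrol and 285, 277 and 287 in G1C7. Of 29 chromatin and transcription regulators, 6 were called higher and 2 lower in G1C7 (median 0.47), and none higher and 2 lower in G2C9. Without those libraries the counts were 25 higher and 2 lower in G1C7 (median 0.34) and 10 higher and 4 lower in G2C9 (median 0.0902). Uhrf1, which maintains DNA methylation through replication, had 285, 276 and 294 in Gcontrol and 451, 215 and 430.5 in G1C7, and Brd2, a bromodomain protein, 487, 465 and 497 and 607, 373 and 591. In both, the second G1C7 library lay below the Gcontrol libraries and the others above them.

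Of 25 genes of mitochondria and metabolism, 7 were called higher in G1C7 and none lower (median 0.46), and 1 higher in G2C9. With the libraries that stood apart left out, there were 15 higher and 2 lower in G1C7 (median 0.31) and 9 higher and 4 lower in G2C9 (median 0.0182). Mtch1, a protein of the outer mitochondrial membrane, had 189, 198 and 202 CPM in Gcontrol, 206, 209 and 207 in G2C9 and 279, 248 and 296 in G1C7. Lonp1, a mitochondrial matrix protease, had 191, 178 and 196 in Gcontrol and 233, 388 and 236 in G1C7. Lonp1 was not called with all 9 libraries, and was called in G1C7 at 0.32 without the libraries that stood apart. Of 12 RNA processing factors, 1 was called higher in G1C7, and the median was 0.14. Hnrnpm, a splicing regulator, had 491, 489.7 and 479.7 in Gcontrol and 565, 325 and 570.1 in G1C7, and Srrm2, a spliceosome scaffold, 718, 616 and 769.6 and 685, 763 and 629, where the groups overlap in both. Of the 12, the calls without the libraries that stood apart were 11 higher and 0 lower in G1C7 (median 0.25) and 4 higher and 1 lower in G2C9 (median 0.0663).

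Of 5 neural and glial genes, 3 were called higher in G1C7 and none in G2C9 (medians 0.71 and 0.63). The library medians were 0.46, 1.17 and 0.42 in G1C7 and 0.37, 0.31 and 0.91 in G2C9, each highest in the library that stood apart. Leaving out those libraries gave 4 higher and 0 lower in G1C7 (median 0.43) and 3 higher and 0 lower in G2C9 (median 0.36). Qk, an RNA-binding protein of glia, had 236, 261 and 231 CPM in Gcontrol, 315, 310.1 and 239 in G2C9 and 326, 238 and 325 in G1C7. Qk was not called with all 9 libraries. It was called without those libraries, at 0.42 in G1C7 and 0.36 in G2C9. Both imprinted genes at the start of the chromosome were uncalled, with all libraries and without those that stood apart. Igf2r, which takes up IGF2 for degradation, had 176, 151 and 175 in Gcontrol, 223, 182 and 201 in G2C9 and 173, 195 and 157 in G1C7. Airn, the antisense RNA of that locus, had 1.37, 1.26 and 1.29, 2.16, 1.16 and 2.89 and 1.66, 2.97 and 1.21, and the counting did not use strand, so its reads and those of Igf2r introns cannot be told apart.

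In the H2 complex, kinds of gene differed in their values. Of 30 genes of its class III region, 10 were called higher and 3 lower in G1C7 (median 0.34), and 1 higher and 3 lower in G2C9. Leaving out the libraries that stood apart gave 19 higher and 4 lower in G1C7 (median 0.34) and 8 higher and 7 lower in G2C9 (median 0.000887). Vars, the cytosolic valyl-tRNA synthetase, had 431, 416 and 448 CPM in Gcontrol, 419.8, 421 and 372 in G2C9 and 595, 549 and 583 in G1C7, where G1C7 stood above both other groups. Its difference from G2C9 was 0.51 ± 0.09 (edgeR adjusted p = 0.0157), and the call was lost without G1C7 replicate 1 or 3, G2C9 replicate 1 or 2 or Gcontrol replicate 1 (adjusted p 0.0581 to 0.0814). Prrc2a, a large RNA-binding protein, had 845, 787 and 903 in Gcontrol and 1126, 841 and 1065 in G1C7, with overlap. Ddah2 had 23.99, 25.4 and 25.2 in Gcontrol and 43.3, 121 and 43.3 in G1C7, and its call was lost without G1C7 replicate 2, G2C9 replicate 1 or 2 or Gcontrol replicate 1 or 2 or 3 (adjusted p 0.0508 to 0.144).

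The 9 class I heavy chain genes, which present peptides to T cells, varied with the libraries that stood apart. Their summed level was 356, 354 and 348 CPM in Gcontrol, 282, 278 and 616 in G2C9 and 345, 662 and 343 in G1C7. Of the 9, 1 was called higher and 0 lower in G1C7 (median 0.26), and 1 higher and 2 lower in G2C9 (median 0.23). Without the libraries that stood apart there were 4 higher and 3 lower in G1C7 (median -0.0114) and 4 higher and 5 lower in G2C9 (median -0.18). H2-K1 had 61.1, 61.8 and 64.2 in Gcontrol, 17.9, 17.7 and 56.2 in G2C9 and 26.4, 120.0 and 26.2 in G1C7. H2-D1 had 209, 205 and 197, 125, 121 and 199.6 and 205, 328 and 198 in that order of groups. For both, the high value of each derivative was that of the library that stood apart, and neither was called with all 9 libraries. H2-T22, a non-classical class I gene, rose in G2C9 from 47.9, 45.9 and 46.8 to 94.6, 92.5 and 241 (log2 1.61 ± 0.40, edgeR adjusted p = 0.0318). That call was lost without Gcontrol replicate 1 or 2 or 3 (adjusted p 0.111 to 0.115). H2-T10 had 6.71, 7.00 and 6.93 in Gcontrol, 14.99, 15.8 and 78.3 in G2C9 and 1.403, 11.2 and 1.48 in G1C7. H2-Q4 fell in G2C9 from 4.99, 5.38 and 5.66 to 0.337, 0.286 and 1.29, a call lost without G2C9 replicate 1 or 2 or Gcontrol replicate 1 or 2 or 3 (adjusted p 0.0999 to 0.1302). H2-K1 and H2-T10 were chosen after their values were seen, and all these genes have close paralogs between which reads may be split.

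Genes that prepare peptides for class I had a median log2 fold change of -0.65 in G1C7 and -2.19 in G2C9. Psmb8, an immunoproteasome subunit, had 3.35, 3.20 and 3.32 CPM in Gcontrol, 0.0396, 0.0408 and 0.449 in G2C9 and 0.337, 3.41 and 0.511 in G1C7. Tap1 and Tap2, the subunits of the peptide transporter, chosen after their values were seen, had 3.605, 3.66 and 4.36 and 9.39, 8.24 and 7.81 in Gcontrol, 0.317, 0.408 and 1.54 and 0.792, 0.735 and 4.02 in G2C9, and 0.861, 6.03 and 0.493 and 1.44, 12.2 and 2.21 in G1C7. In these 3 genes G1C7 replicate 2 was above most or all of the controls and the other G1C7 libraries were below them. Tapbp, the chaperone that loads peptides, fell in G2C9 from 206, 218 and 212 to 119, 123 and 142 (log2 -0.73 ± 0.12, edgeR adjusted p = 0.00571). Psmb1, a subunit of the constitutive proteasome, had 248.9, 269 and 232 in Gcontrol and 265, 300.4 and 278 in G1C7. Of these 5 listed genes, none was called in G1C7 and 2 were called lower in G2C9, Psmb8 and Tapbp, and the Psmb8 call was lost without G2C9 replicate 1 or 2 or Gcontrol replicate 1 or 2 or 3 (adjusted p 0.0978 to 0.121). Without the libraries that stood apart 4 of the 5 were called lower in each derivative, with medians of -2.21 and -3.41. The single class II region gene among the 648, H2-DMa, had 1.77, 1.94 and 1.71 in Gcontrol and 1.61, 2.17 and 1.92 in G1C7.

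The 20 genes called lower in G1C7 lay in all windows but the last, with 3, 5, 5, 2, 2 and 3 from the first to the sixth, 4 of them before the split and 16 after it. Of them, 18 were protein coding. Ehd3, of endocytic recycling (chromosome 17, 73804134 to 73832094, plus strand), had 2.81, 2.44 and 2.43 CPM in Gcontrol, 0.396, 0.571 and 0.781 in G2C9 and 0 reads in all 3 G1C7 libraries. The 422 Gcontrol reads set against a floor of 6 reads (3 read pairs) over the group make it at least 69.6-fold lower in G1C7. Six2, a homeobox factor (85684277 to 85688274, minus strand), had 1.68, 2.03 and 2.22 in Gcontrol, 0 reads in G2C9 and 2 reads in G1C7. It was at least 49.8-fold lower in G2C9, and the ratio of Gcontrol to G1C7 was 162 with a 95% counting interval of 28.5 to 6407. Intervals and floors cover counting error only.

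Smoc2, a matricellular protein (14279506 to 14404790, plus strand), had 31.3, 30.3 and 33.0 CPM in Gcontrol, 1.19, 1.90 and 1.23 in G2C9 and 0.337, 0 and 0.402 in G1C7. Both derivatives lay far below the controls, at -6.99 ± 0.70 (log2, SE, edgeR adjusted p = 0.000537) in G1C7 and -4.45 ± 0.60 (0.00222) in G2C9. Angptl4, a secreted inhibitor of lipoprotein lipase (33773750 to 33781830, minus strand), had 74.96, 74.9 and 72.6 in Gcontrol, 17.5, 16.7 and 28.9 in G2C9 and 6.32, 6.43 and 6.65 in G1C7, with 3 groups well apart and little spread within G1C7. Its log2 fold changes were -3.52 ± 0.21 in G1C7 (6.54e-05) and -1.82 ± 0.20 in G2C9 (0.000854), and the derivatives differed by -1.70 ± 0.20 (0.00312). Its neighbours in the same window had a G1C7 median of 0.44.

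Notch4, a Notch receptor best known from endothelium, had 3.18, 3.75 and 3.28 CPM in Gcontrol, 0.158, 0.347 and 0.703 in G2C9 and 0.281, 0.419 and 0.146 in G1C7, low in both derivatives. Epas1, the oxygen-regulated factor HIF-2alpha, had 4.71, 5.43 and 5.59 in Gcontrol, 1.90, 2.33 and 3.48 in G2C9 and 0.898, 1.64 and 1.13 in G1C7. Its fall in G2C9 by 1.03 ± 0.29 on the log2 scale (edgeR adjusted p = 0.0494) lost its call without G1C7 replicate 3, G2C9 replicate 1 or 2 or Gcontrol replicate 1 or 2 or 3 (adjusted p 0.0690 to 0.156). Rcan2, an inhibitor of calcineurin (43801351 to 44039516, plus strand), had 51.2, 52.5 and 50.5 in Gcontrol, 4.0004, 3.71 and 2.40 in G2C9 and 14.5, 7.81 and 14.9 in G1C7. It fell in both derivatives and was lower in G2C9 than in G1C7, by 1.88 ± 0.27 on the log2 scale (edgeR adjusted p = 0.00826). Plcl2, a phospholipase C-like protein without catalytic activity, had 24.1, 25.9 and 24.8 in Gcontrol, 11.3, 10.5 and 11.1 in G2C9 and 9.52, 11.9 and 9.92 in G1C7, about alike in the derivatives.

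Fbxl16, an F-box protein and one of the first 12 genes after the split, had 2.98, 3.23 and 3.14 CPM in Gcontrol, 2.20, 1.92 and 3.12 in G2C9 and 0.636, 1.24 and 0.475 in G1C7. In G2C9 its log2 fold change was -0.37 ± 0.35 and was not called, and without the libraries that stood apart it was called at -0.60. Def6 had 5.71, 5.99 and 5.998 in Gcontrol, 5.90, 6.27 and 10.7 in G2C9 and 2.32, 3.66 and 2.37 in G1C7. Zfp820 had 3.48, 3.88 and 2.72, 3.07, 3.35 and 3.96 and 1.57, 1.77 and 1.13 in that order of groups. In these 3 genes G1C7 lay below both other groups in every library. Lrrc73 had 5.42, 5.67 and 5.49 in Gcontrol, 2.48, 2.31 and 3.44 in G2C9 and 2.75, 3.55 and 1.68 in G1C7. In G1C7, the call of Def6 was lost without G1C7 replicate 1 or 3 or Gcontrol replicate 1 or 2 or 3 (adjusted p 0.0829 to 0.0891), that of Zfp820 without Gcontrol replicate 1 or 2 (adjusted p 0.0517 to 0.0543) and that of Lrrc73 without G1C7 replicate 1 or 3, G2C9 replicate 1 or Gcontrol replicate 1 or 2 or 3 (adjusted p 0.0526 to 0.105). That of Lrrc73 in G2C9 was lost without G1C7 replicate 1, G2C9 replicate 1 or 2 or Gcontrol replicate 1 or 2 or 3 (adjusted p 0.0676 to 0.156).

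Of 9 chaperone genes, 2 were called higher and 2 lower in G1C7 (median 0.27), and none higher and 2 lower in G2C9. The lower ones were the inducible heat shock genes. Of the same 9, without the libraries that stood apart, there were 6 higher and 2 lower in G1C7 (median 0.33) and 2 higher and 2 lower in G2C9 (median 0.0756). Hspa1b had 48.3, 48.6 and 52.0 CPM in Gcontrol, 27.3, 26.8 and 26.6 in G2C9 and 30.8, 34.8 and 28.9 in G1C7, a fall of 0.88 ± 0.09 on the log2 scale in G2C9 (edgeR adjusted p = 0.000706). Its twin Hspa1a had 2.07, 2.55 and 1.41 in Gcontrol, 0.0792, 0.286 and 0.254 in G2C9 and 0.0935, 0.219 and 0.237 in G1C7. The coding sequences of this pair are nearly identical and shared reads were dropped, so the split between them is uncertain. Hspa1a, Six2, Rmdn2, Mdga1 and Arhgdig averaged under 1 CPM and were chosen after their values were seen. Rmdn2, a microtubule-associated protein, had 1.37, 1.90 and 1.46 in Gcontrol, 0.198, 0.163 and 0.117 in G2C9 and 0.0187, 0.0728 and 0.0365 in G1C7. Mdga1, a membrane-anchored adhesion protein, had 1.96, 1.74 and 1.92, 0.376, 0.143 and 0.820 and 0.337, 0.255 and 0.402, and Arhgdig 1.55, 1.48 and 1.55, 0.277, 0.245 and 0.195 and 0.524, 0.910 and 0.584 in that order of groups. Arhgdig lost its G1C7 call without G1C7 replicate 1 or 3 or Gcontrol replicate 1 or 2 or 3 (adjusted p 0.0673 to 0.0801) and Mdga1 its own without Gcontrol replicate 1 (adjusted p 0.0506). In G2C9, Mdga1 lost it without G2C9 replicate 1 or Gcontrol replicate 1 or 2 or 3 (adjusted p 0.0870 to 0.109).

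**Figure D5:**
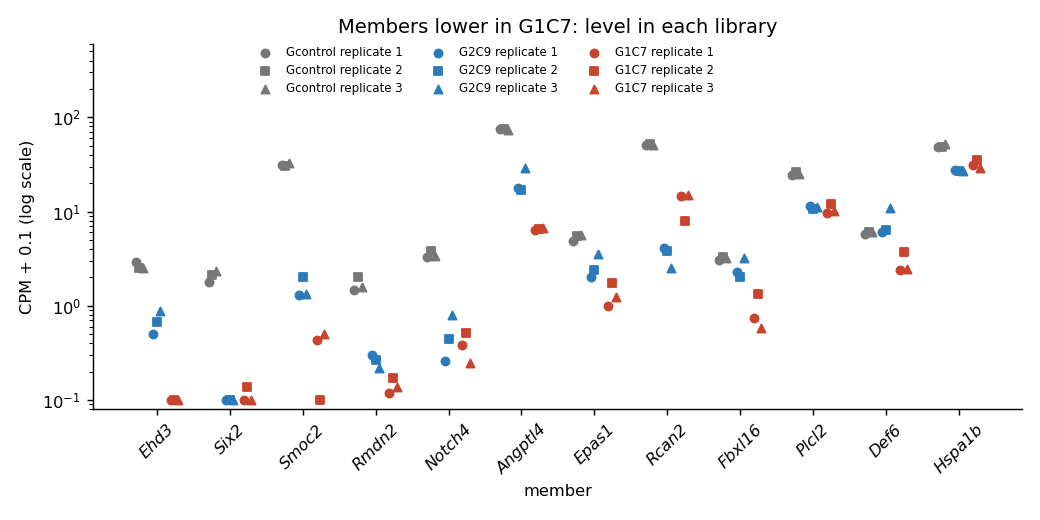
Level in each library, as CPM + 0.1 on a log axis, of 12 chromosome 17 genes called lower in G1C7, with Gcontrol in grey, G2C9 in blue and G1C7 in red and 1 symbol shape per replicate. All Gcontrol points lie above all G1C7 points of the same gene, and Ehd3 and Six2 sit at or near the bottom of the axis in G1C7.

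Of 17 genes of adhesion, matrix and cytoskeleton, 7 were called higher and 2 lower in G1C7 (median 0.36), and 3 higher and 3 lower in G2C9 (median -0.0414). Leaving out the libraries that stood apart gave 11 higher and 3 lower in G1C7 (median 0.30) and 4 higher and 8 lower in G2C9 (median -0.13). Ezr and Nme4 were called in opposite directions in the derivatives. Ezr, ezrin, which ties the membrane to actin (6738041 to 6782784, minus strand), had 34.5, 36.3 and 37.1 CPM in Gcontrol, 17.9, 19.2 and 19.6 in G2C9 and 44.5, 47.5 and 41.9 in G1C7. Nme4, a mitochondrial nucleoside diphosphate kinase, had 5.71, 6.06 and 5.79 in Gcontrol, 3.47, 2.73 and 3.34 in G2C9 and 8.31, 11.4 and 9.30 in G1C7. In both genes the 3 groups did not overlap. Ezr fell in G2C9 by 0.92 ± 0.09 (log2, SE, edgeR adjusted p = 0.000452) and was 0.31 ± 0.08 in G1C7, and Nme4 fell in G2C9 by 0.88 ± 0.17 (0.0106) and was 0.72 ± 0.17 in G1C7. The derivatives differed by 1.24 ± 0.09 for Ezr (0.000285) and 1.601 ± 0.17 for Nme4 (0.00202), without losing the call when any 1 library was left out. The G1C7 call of Ezr was lost without G1C7 replicate 1 or 3, G2C9 replicate 1 or 2 or Gcontrol replicate 1 or 2 or 3 (adjusted p 0.0520 to 0.156), and that of Nme4 without Gcontrol replicate 1 or 2 or 3 (adjusted p 0.0692 to 0.0861).

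In G2C9, a few further genes departed from its own low chromosome median. Galm, galactose mutarotase, rose from 6.95, 6.97 and 6.39 CPM in Gcontrol to 19.9, 18.6 and 18.8 in G2C9 and had 9.22, 7.94 and 9.37 in G1C7. Its log2 fold change was 1.495 ± 0.12 in G2C9 (edgeR adjusted p = 0.000194), and G1C7 was lower than G2C9 by 1.11 ± 0.11 (0.00166), against the direction of its neighbours. Scube3, a secreted signalling protein, fell in G2C9 from 29.4, 26.1 and 33.0 to 1.82, 1.55 and 7.71, with 12.9, 47.1 and 11.98 in G1C7. Its call was lost without G2C9 replicate 1 or 2 or Gcontrol replicate 1 or 2 or 3 (adjusted p 0.0762 to 0.102), and without the libraries that stood apart its log2 fold change was -4.12. Cul9, a cullin, rose from 0.555, 0.610 and 0.794 to 2.28, 1.16 and 1.41 in G2C9 and had 1.74, 1.71 and 1.53 in G1C7. The G2C9 call of Cul9 was lost without G2C9 replicate 1 or Gcontrol replicate 1 or 2 or 3 (adjusted p 0.0545 to 0.106). Ptprs, a receptor tyrosine phosphatase of neurons, is not one of these, with an uncalled log2 fold change of 0.23 in G2C9. Ptprs had 424, 368 and 448 in Gcontrol, 459.8, 419.8 and 573 in G2C9 and 641, 826 and 583 in G1C7. Its G1C7 call was lost without Gcontrol replicate 1 or 2 or 3 (adjusted p 0.0529 to 0.0833).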

How the data were processed

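Poly(A) RNA of 9 NP53 libraries, 3 per group, was sequenced as stranded paired reads of 100 bases, per the labels' protocols. The deposited values are raw counts of reads per gene, made with featureCounts 1.6.0 against GENCODE vM25 on GRCm38, per the file headers. STAR 2.6.1c and FastQC 0.11.8 are named in the submitters' processing notes. The 9 headers held 0 options for pairs, strand, or reads in several places or genes. By that program's defaults each mate counts by itself, strand plays no part, and a read that maps to several places or falls in more than 1 gene is left out, so counts of paralogs and of overlapping genes are uncertain. Symbols came from GENCODE vM21 (55141 of 55401 IDs).

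All 9 libraries entered a single edgeR 4.0.16 quasi-likelihood fit (R 4.3.3, TMM, robust, filterByExpr, 15659 genes, 6 residual degrees of freedom) with 3 comparisons. Each SE was obtained by dividing the size of the log2 fold change by the square root of F. Log2 ratios of single libraries used CPM plus 0.1. Medians over genes are descriptions. The script was tested on simulated counts. Alternatives were RLE factors, DESeq2 1.42.0, limma-voom 3.58.1, no filter, a replicate block, other memberships, summed CPM, 10 Mb windows, and leaving out libraries.

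The genes, lists and tests were chosen with earlier results of these data known. Named were, at 1 CPM or more and protein coding, up to 12 genes called in each direction in G1C7 and 6 in G2C9, the gene with the most reads per window, the 2 with the most reads per list, and those called in opposite directions. The split at Tsr3 was added after the data were seen.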

Additional observations from a re-analysis of the deposited data

Results flagged for a closer look

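The effects of the 2 derivatives against the same controls differed, by edgeR's test of the log2 difference between G1C7 and G2C9, for 17 of the genes named. G1C7 was lower than G2C9 for Ehd3 (-7.96, fitted against 0 reads in G1C7, so its size is no bound), Angptl4 (-1.70), Fbxl16 (-1.62), Def6 (-1.45), Zfp820 (-1.21) and Galm (-1.11). It was higher for Rcan2 (1.88), Nme4 (1.601), Arhgdig (1.48), Msln (1.31), Ezr (1.24), Ltbp1 (0.61), Sos1 (0.56), Vars (0.51), Rpl36 (0.45), Mtch1 (0.40) and Rps28 (0.35). Ezr and Zfp820 lie before the split at Tsr3 and the other genes after it. The calls of Ehd3, Angptl4, Rcan2, Galm, Ezr and Nme4 held without each of the 9 libraries in turn. Those of the others were less steady. The call held in only 1 of these 9 runs for Fbxl16, Zfp820, Mtch1 and Arhgdig, and in 2 for Rps28. It held in 3 for Def6, Ltbp1 and Sos1, in 4 for Vars and Rpl36 and in 5 for Msln. Where lost, adjusted p-values reached up to 0.208. The genes were chosen with results known, so their number is no measure of how common such differences are.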

How the results depend on the processing

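The whole-chromosome medians kept their sign in every alternative run. Leaving out 1 library at a time gave 0.38 to 0.43 in G1C7, lowest without replicate 2, 0.12 to 0.15 in G2C9 and 0.26 to 0.29 between them. For windows 1 to 7 in G1C7 these ranges were 0.13 to 0.18, 0.32 to 0.36, 0.38 to 0.45, 0.40 to 0.48, 0.55 to 0.58, 0.47 to 0.54 and 0.60 to 0.85. In G2C9 they were 0.18 to 0.22, 0.13 to 0.19, 0.0615 to 0.11, 0.0693 to 0.12, 0.22 to 0.31, 0.10 to 0.16 and -0.0932 to 0.15. Without both libraries that stood apart the G1C7 whole-chromosome median was 0.38, and in windows 2, 3 and 7 it was 0.31, 0.38 and 0.60. The G2C9 medians of windows 1, 2, 3, 5 and 7 were then 0.21, 0.13, 0.0569, 0.22 and -0.0974. Window 7 of G2C9 changed sign there and without G2C9 replicate 3 (-0.0932) or Gcontrol replicate 3 (-0.0353), and it holds 5 genes.

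At a mean of 5 CPM or more, the medians were 0.19 in window 1 and 0.69 in window 7 of G1C7, and 0.16, 0.13 and 0.13 in windows 1, 2 and 7 of G2C9. With protein-coding genes only, window 7 of G1C7 was 0.44, and windows 1, 2 and 7 of G2C9 were 0.18, 0.14 and 0.18. The log2 ratio of summed CPM was 0.31, 0.41, 0.37, 0.62 and 0.60 in windows 2, 3, 4, 6 and 7 of G1C7, and 0.23, 0.13, 0.27 and 0.12 in windows 1, 2, 5 and 7 of G2C9. The causes were not tested.

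Counts of calls moved more. Without 1 library at a time, 110 to 298 genes were called higher and 12 to 30 lower in G1C7, 13 to 122 and 16 to 46 in G2C9, and 9 to 146 and 3 to 15 between the derivatives. The low counts of G1C7 came without a Gcontrol library (110, 117 and 113 higher for replicates 1, 2 and 3), and the high ones without G1C7 replicate 2, with 122 higher in G2C9 and 146 between the derivatives. Without both libraries that stood apart the counts were 422 and 63, 258 and 109, and 349 and 33. DESeq2 called 94 higher in G2C9 and 140 between the derivatives, and without the filter edgeR called 33 and 27. At 5 CPM or more, 8 genes were lower in G1C7, 15 in G2C9 and 3 between the derivatives, over 487 genes. Except without both libraries that stood apart, shares over all genes are not given for these runs. Nothing particular to chromosome 17 is read from their counts.

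With the replicate number as a block, 144 genes were called higher in G1C7, 20 higher and 19 lower in G2C9, and 10 and 3 between the derivatives. For the block, too, no share over all genes is given. Same-numbered libraries of the derivatives had correlations of their deviations of 0.41, -0.51 and -0.56, so the numbers were not taken to pair libraries, and not every library correlated best with its own number. Of 97 gene results, 51 kept their call in every alternative, 37 lost it under the block and 45 without Gcontrol replicate 1. Reads per gene limit the genes near 1 CPM.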
